A study of Mus musculus with 8 samples.

Results

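Aldehyde dehydrogenases oxidise reactive aldehydes to acids with NAD or NADP as cofactor, and the family takes in retinaldehyde oxidation as well as the clearance of aldehydes from alcohol, lipids and amines. The 10 genes described here (Aldh1a1, Aldh1a2, Aldh1a3, Aldh1a7, Aldh1b1, Aldh2, Aldh3a1, Aldh3a2, Aldh3b1 and Aldh9a1) were chosen by name, as rows whose gene symbol equals one of these names, and each matched 1 of the 38172 rows of the table. The values come from polyadenylated RNA of haematopoietic stem cells (HSCs), the self-renewing source of the blood lineages, from C57BL/6 mice aged 4 months (called young) or 24 months (called old); the labels name no genotype change and no drug. The cells were sorted fresh from bone marrow as side population cells that carry Kit, Sca-1 and CD150 and lack lineage markers (SP-KSL-CD150+). Each age has biological replicates 13 and 14, and each of these was made into 2 technical libraries, 8 in all; the technical libraries were averaged, which leaves n = 2 for an age. How many mice went into a replicate is not stated in the labels, and a p-value here speaks only for the spread among these 4 replicates. A level is given either as the authors' scaled value (reads multiplied by 1 factor per library) or as FPKM, which also corrects for length and allows genes to be compared with each other.

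ALDH activity is a familiar property of blood stem cells: dyes that turn fluorescent when ALDH enzymes act on them are used to isolate stem and progenitor cells. Aldh1a1, Aldh1a2 and Aldh1a3 encode the cytosolic enzymes that turn retinaldehyde into retinoic acid, the ligand of the retinoic acid receptors. Aldh1a7 is a rodent paralog that lies beside Aldh1a1. Aldh2 encodes the mitochondrial enzyme that clears acetaldehyde, and mouse work has tied it, together with Fanconi anaemia repair, to the protection of HSCs from aldehyde damage to DNA.

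The promoters of Aldh1a1 and Aldh1a7 are shown because these neighbouring paralogs moved in opposite directions with age while being alike in sequence. Each runs from 250 bases before to 50 bases after a transcript start, 5′ to 3′ on the gene's own strand, from RefSeq on GRCm38.p6, with the longest run shared by both in capitals.
Aldh1a1, chr19:20601718-20602017, plus strand: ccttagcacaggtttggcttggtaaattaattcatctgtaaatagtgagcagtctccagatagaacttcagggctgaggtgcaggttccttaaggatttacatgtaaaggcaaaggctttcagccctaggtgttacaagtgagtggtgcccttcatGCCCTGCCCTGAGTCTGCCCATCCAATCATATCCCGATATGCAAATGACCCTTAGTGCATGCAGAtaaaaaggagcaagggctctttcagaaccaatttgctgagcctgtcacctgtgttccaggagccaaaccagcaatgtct
Aldh1a7, chr19:20727507-20727806, minus strand: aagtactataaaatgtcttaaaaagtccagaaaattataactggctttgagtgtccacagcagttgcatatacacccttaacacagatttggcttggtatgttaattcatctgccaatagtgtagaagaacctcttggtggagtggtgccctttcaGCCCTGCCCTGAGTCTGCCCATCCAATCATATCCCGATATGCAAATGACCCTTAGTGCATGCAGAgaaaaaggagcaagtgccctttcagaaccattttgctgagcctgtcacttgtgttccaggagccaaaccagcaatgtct
The shared run was 65 bases long, and it lay from position -94 to position -30 from the start in both genes. Over the last 150 bases of the 2 windows 142 bases were identical, or 94.7%, against 70.2% of all columns in a global alignment of the whole windows. The table lists 2 starts for Aldh1a1, of which the one nearer to Aldh1a7 is printed.

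The coding sequences of this pair were 91.6% identical over 1503 bases each, in the transcripts of the deposited gene models as GENCODE release M21 on GRCm38 gives them. The next most similar pair, Aldh1b1 and Aldh2, was 69.4% identical. The first 90 coding bases are shown with the 5 bases that differ in capitals, since such bases are what separates reads of these genes.
Aldh1a1: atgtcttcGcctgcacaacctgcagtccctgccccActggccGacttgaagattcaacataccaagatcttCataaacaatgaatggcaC
Aldh1a7: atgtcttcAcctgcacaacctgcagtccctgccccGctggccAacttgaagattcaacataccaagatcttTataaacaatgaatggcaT
Of the 2017 stretches of 50 bases in the Aldh1a7 transcript, 151 (7.49%) occurred unchanged in the Aldh1a1 transcript, and 620 (30.7%) did with at most 2 mismatches. At 100 bases these numbers were 1 and 167 of 1967. No source used here gives the read length or the handling of reads that match both genes, so the value of the less abundant Aldh1a7 is uncertain. No stretch of either length in the Aldh3a1 transcript occurred in that of its neighbour Aldh3a2, also with 2 mismatches.

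The deposited scaled values summed to between 40.7 M and 44.2 M per library, from an estimated 22.3 M to 66.5 M reads. Markers of the sorted cells were present: Kit stood at 213 to 248 FPKM, and all 10 HSC markers were at 11.7 FPKM or more in every replicate. Young replicate 14 stood apart. Its neutrophil and granulocyte progenitor list summed to a scaled value of 55140, of which Mpo gave 27761.5. Prtn3, the gene of this list with the highest FPKM averaged over all replicates, was not highest there. Its values were 4457 and 6940 in young 13 and 14, and 7700.5 and 9944.5 in old 13 and 14. The list summed to 14502 in young 13, 13886.5 in old 13 and 28390.5 in old 14. Its mast cell and basophil list, led by Prss34 (led by is used here for the highest mean FPKM), summed to 5328.5, against 673.5 to 1785.5 in the others. The calls are therefore also given without this replicate. The megakaryocyte, B cell, T and NK cell and endothelial lists were led by Itga2b, Cd79b, Nkg7 and Pecam1, none of which was called. In these lists 2 genes in all were called, 1 of the T and NK cell and 1 of the endothelial list, each higher in old HSCs.

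In old HSCs Aldh3a1 rose 10.2-fold and Aldh1a1 rose 2.22-fold, while Aldh1a7 fell to 0.324 of its young level. The other 6 of the 9 genes tested did not pass, among them Aldh2, Aldh9a1 and Aldh3a2. Together with Aldh1a1 those genes made up nearly all message of the 10 genes by FPKM, with further Aldh genes left out. Aldh1a2 was too low to be tested. Genes were tested with limma on log2(scaled value + 0.5) across the 18318 genes that reached a scaled value of 10 in 2 or more replicates, and called at a Benjamini-Hochberg adjusted p under 0.05. Of all genes tested, 2.01% were called higher and 0.54% lower in old HSCs, or 2.55% in either direction, against 2 and 1 of these 9. The members were chosen with earlier results of these data known, so this contrast is a description and no independent support. A fold of 2 or more in either direction was reached by 3 of the 9 and by 7.09% of all genes tested. Their median log2 fold change was -0.01, beside 0.04 over all genes tested. Of all genes tested, 56.5% lay above 0 and 2573 had an unadjusted p under 0.05, against 4 and 3 of the 9, and the counts of these kinds given for lists are to be read beside those shares. In 4 of the 9 both old replicates lay on the same side of both young ones, which 42.1% of all genes tested also showed. In bulk samples such as these, fewer cells of a type and less RNA per cell cannot be told apart. Without young replicate 14 Aldh3a1 was still called (log2 fold change 3.41, limma adjusted p = 0.00392), while Aldh1a1 (1.22, adjusted p = 0.216) and Aldh1a7 (-1.61, adjusted p = 0.137) were not.

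**Figure D1:**
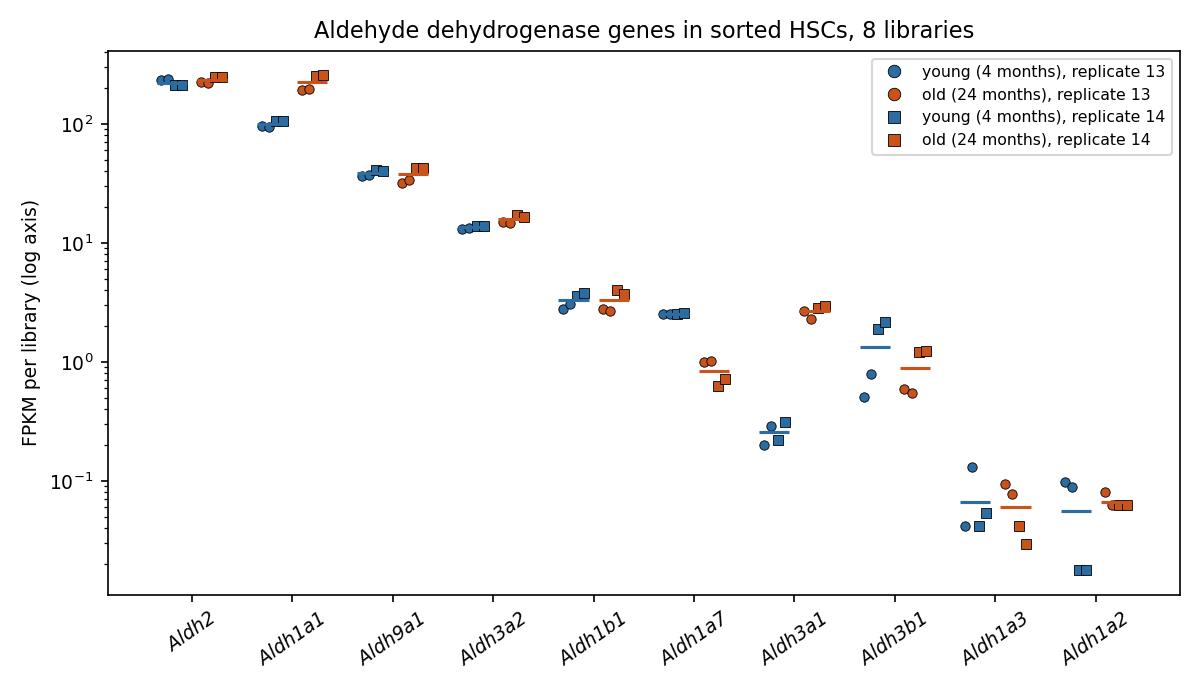
FPKM of the 10 genes in each of the 8 libraries on a log axis, with the mean of the 4 libraries of an age as a line; circles are replicate 13 and squares replicate 14. The old libraries of Aldh1a1 and Aldh3a1 lie above all young ones, those of Aldh1a7 lie below them, and the other genes overlap or lie close together.

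Among the retinaldehyde dehydrogenases, Aldh1a1 accounted for almost all of the message. Its scaled value was 9629.5 and 10662 in replicates 13 and 14 at 4 months, against 19639.5 and 25742 at 24 months. Both old replicates were above both young ones, and the technical libraries of a replicate differed by at most 0.02 on the log2 scale. The fitted log2 fold change was 1.15 (SE 0.19, 95% interval of the fold 1.63 to 3.02, limma adjusted p = 0.029). Leaving out any 1 of the 4 replicates ended this call, with log2 fold changes from 0.95 to 1.35, as did testing with no filter on low values. With all replicates kept the call held in 10 of 11 alternatives. The gene lies on chromosome 19 from 20676472 to 20717952 on the plus strand in mm9, the build of the deposited files, and its span overlaps no other row of the table.

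HSC markers moved with Aldh1a1. Their log2 fold changes were above 0 in 10 of 10, with a median of 0.32, 2 of them were called higher (Slamf1, and Procr with a limma adjusted p = 0.0483) where limma-voom called 1, and their FPKM summed to 780 and 742 in young and to 889 and 1002 in old HSCs. The dendritic list, led by H2-Aa, summed to scaled values of 11163.5 and 11486.5 in the young and 14089 and 22908.5 in the old replicates. Of its 5 tested genes, 3 lay above a log2 fold change of 0 (H2-Aa, H2-Ab1 and Cd74). The other 2, Itgax (-0.37) and Zbtb46 (-0.24), lay below 0. Limma and limma-voom called 0 of the 5, of which 2 had an unadjusted p under 0.05. No marker of either list was at 0 in all replicates. The part of these cells in the value of Aldh1a1 was not tested.

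Aldh1a2 (chromosome 9 from 71063596 to 71144050) and Aldh1a3 (chromosome 7 from 73535779 to 73572363), the other retinaldehyde dehydrogenases, were close to the limit of detection. Aldh1a2 was 10.5 and 2 at 4 months against 8 and 7 at 24 months in scaled values, or between 4 and 22 estimated reads per replicate. Aldh1a3 was 14.5 and 8 at 4 months against 14.5 and 6 at 24 months (adjusted p = 0.929). The ages overlapped for both genes, and in young replicate 13 the technical libraries of Aldh1a3 held 7 and 22. At this depth a difference with age was not detectable for Aldh1a3, whose 95% interval ran from a log2 fold change of -1.56 to 1.17.

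Aldh1a7 went the other way from its neighbour. Its scaled value was 257.5 and 262.5 at 4 months against 103 and 68.5 at 24 months, so that both old replicates were below both young ones. The log2 fold change was -1.62 (SE 0.27, limma adjusted p = 0.0309), the 140th lowest of all genes tested. It lies 49.5 kb beyond the end of Aldh1a1, on chromosome 19 from 20767443 to 20802046 on the minus strand in mm9. For every 100 FPKM of Aldh1a1 the young replicates held 2.64 and 2.43 FPKM of Aldh1a7, the old ones 0.517 and 0.262. The call was the least stable of the 3: it was lost without any 1 of the replicates, with either technical library alone (adjusted p = 0.0562 and 0.0521) with equal library totals (0.0562) and with no filter on low values (0.161), out of a range from 8.91e-06 to 0.257 over all alternatives.

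Marker lists of other cells were lower in old HSCs as well. The erythroid marker list summed to scaled values of 9124 and 8853 at 4 months against 5597.5 and 5449.5 at 24 months. Of its rows 9 of 9 lay below a log2 fold change of 0. Limma called 3 of them lower, Klf1 and Slc4a1 among these, and 6 were not called. The leading row, that of Hba-a1 and Hba-a2, was among those not called. It stood at 691.5 and 697.5 in young and at 449 and 869.5 in old replicates 13 and 14. The stroma list, led by Col1a2, summed to 7195 and 7841 in young and 3314 and 3097.5 in old, with 10 of 10 genes below 0 and 3 called lower, and none of the markers of either list was at 0 in all replicates. These 2 lists were not alone. Below 0 also lay 8 of 8 tested macrophage genes and 11 of 12 of the neutrophil and granulocyte progenitor list. The same held for 6 of 8 endothelial and 5 of 7 B cell genes. The part of any of these cells in the value of Aldh1a7 was not tested.

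Beyond this pair 1 nearby gene was high enough to test. Tmc1, a channel protein of inner ear hair cells and the next gene beyond Aldh1a7, was 14.5 in young and 28 in old HSCs on average (adjusted p = 0.5). The 3 rows before Aldh1a1 (Gm6684, E030003E18Rik and C730002L08Rik) had a value of 0 in every replicate.

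**Figure D2:**
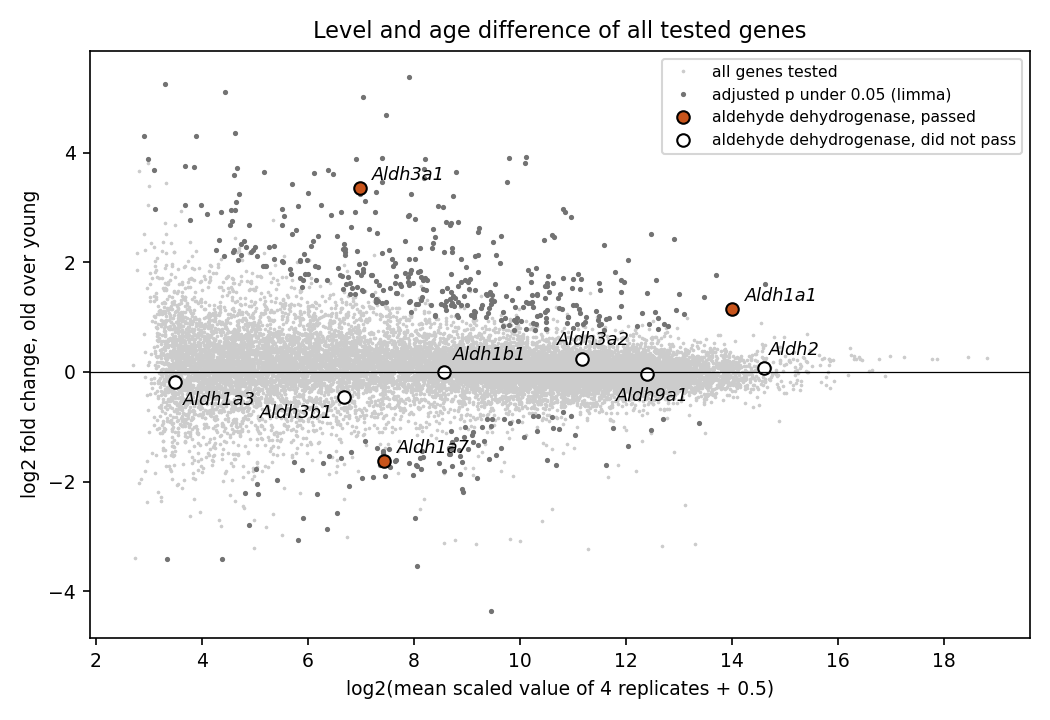
Log2 fold change of old over young against the level of each tested gene, with genes past an adjusted p of 0.05 in dark grey and the 9 tested aldehyde dehydrogenases named. Aldh3a1, the 35th highest of all genes tested, and Aldh1a1 lie above 0 and Aldh1a7 lies below it, and the other members lie near 0 or did not pass.

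Aldh3a1, an enzyme for aromatic and medium-chain aldehydes that is abundant in cornea and known as a target of the aryl hydrocarbon receptor, had the largest change of the family. Its scaled value was 21 and 23 at 4 months against 211.5 and 246 at 24 months, with no overlap between the ages. The young values rest on 50 estimated reads per replicate, summed over the technical libraries, and the old ones on 327 and 475. On the log2 scale the technical libraries of young replicates 13 and 14 differed by 0.54 and 0.50. That is more than the 0.13 between the 2 young replicates, so their closeness overstates the precision of the young level. In old replicates 13 and 14 the technical difference was 0.23 and 0.06. The log2 fold change was 3.35 (SE 0.27, 95% interval of the fold 6.5 to 15.9, limma adjusted p = 0.00306), the 35th highest of all genes tested. In FPKM it went from 0.256 ± 0.0165 to 2.67 ± 0.284 (SD, n = 2 per age), so it remained a low message in old HSCs. Without old replicate 13 or old replicate 14 Aldh3a1 was no longer called (limma adjusted p = 0.124 and 0.176), and with no filter on low values its adjusted p was 0.0551. It was still called when young replicate 13 or young replicate 14 was left out. The gene lies on chromosome 11 from 61022244 to 61031918 on the plus strand in mm9.

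Aldh3a2, the fatty aldehyde dehydrogenase of the endoplasmic reticulum, is the nearest gene on the other side of Aldh3a1, 26.3 kb away on chromosome 11, from 61058257 to 61080629 on the minus strand. It was 2071.5 and 2157 at 4 months against 2312.5 and 2646 at 24 months in scaled values. Both old replicates were above both young ones, and the test was not passed: the fold was 1.17 with a 95% interval of 0.924 to 1.48 (limma adjusted p = 0.586). By FPKM, Aldh3a2 exceeded Aldh3a1 by 54.2 and 51.6 times in the young replicates and by 6.01 and 5.91 times in the old ones. On the other flank Usp22, a histone deubiquitinase subunit, was 6294 and 6922.5 on average in young and old (adjusted p = 0.809). The rows HNG_005047 and Gm12270, which lie nearer, did not pass, and Slc47a1 and Slc47a2, transporters of organic cations, were below 1 in scaled value on average at each age. Of the 6 rows closest to Aldh3a1, 4 were tested and none of these 4 passed in limma.

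Aldh3b1, which acts on lipid-derived aldehydes, followed the replicate number more than the age. It lies on chromosome 19 from 3913491 to 3929716 in mm9. Its scaled value in replicates 13 and 14 was 59 and 184.5 at 4 months, then 52 and 111 at 24 months. The ages overlapped, and replicate 14 exceeded replicate 13 by 1.64 on the log2 scale in young and by 1.09 in old HSCs. The log2 fold change was -0.46 (SE 0.58, adjusted p = 0.811), and it turned to 0.36 without young replicate 14. In the authors' deposited table this gene is marked as lower at 24 months, with a log2 fold change of -0.62 and an FDR of 0.0334. The neutrophil and granulocyte progenitor list was higher in replicate 14 at each age too, with the sums given above, and had 11 of 12 genes below 0; 6 of the 12 had an unadjusted p under 0.05 and limma and limma-voom called 0. So was the mast cell and basophil list. The macrophage list, led by Cd68, summed to 2002 and 3830.5 at 4 months and to 1239 and 1686 at 24 months, with 8 of 8 tested genes below 0 and 1 called lower. None of these markers was at 0 in all replicates, and their part in the value of Aldh3b1 was not tested.

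Aldh2 was the most abundant member in young HSCs and did not pass the test. Its scaled value was 25716.5 and 23137.5 at 4 months against 24487.5 and 27090 at 24 months, and the ages overlapped. The 95% interval of the fold was 0.793 to 1.41 (adjusted p = 0.904). Among all rows Aldh2 ranked 111 by mean FPKM, and Aldh1a1 ranked 186. Its mitochondrial paralog Aldh1b1 was 333.5 and 424.5 at 4 months against 314.5 and 446 at 24 months, with replicate 14 higher at each age and a fold interval of 0.67 to 1.48 (adjusted p = 0.996). Aldh9a1, which makes the precursor of carnitine from an aldehyde, was 5173.5 and 5706.5 at 4 months against 4651.5 and 6026.5 at 24 months. The ages overlapped here too, and the interval of the fold was 0.735 to 1.29 (adjusted p = 0.959). In mm9 Aldh2 lies on chromosome 5 from 122017696 to 122043833, Aldh1b1 on chromosome 4 from 45811894 to 45817480 and Aldh9a1 on chromosome 1 from 169280122 to 169298661.

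**Figure D3:**
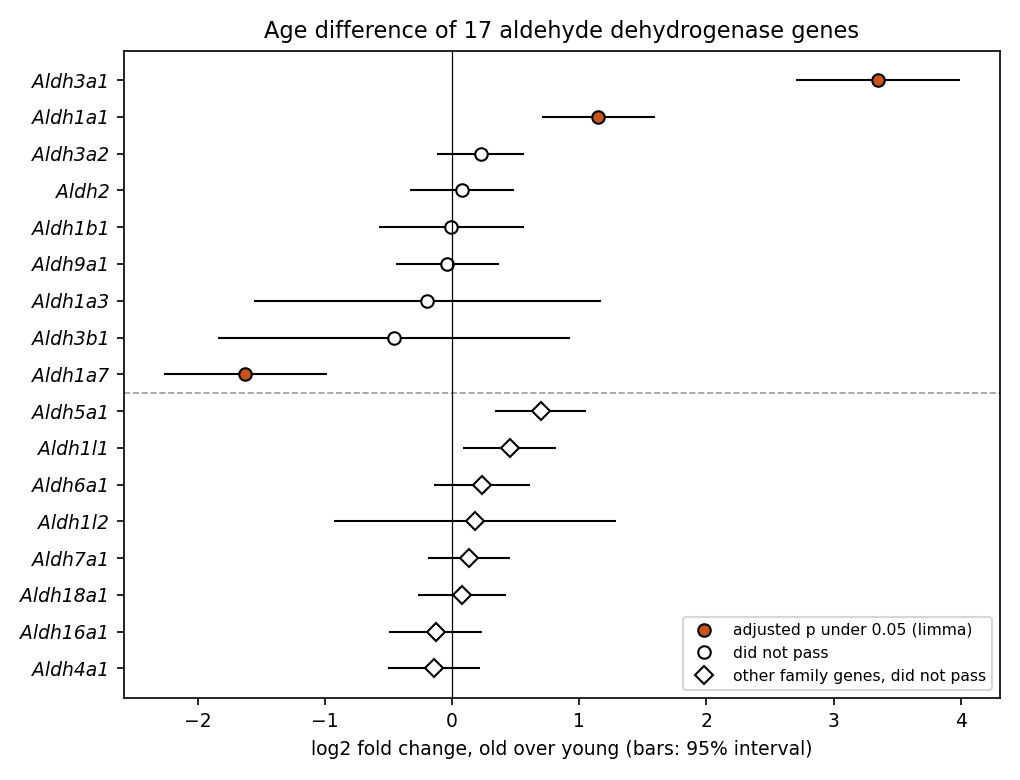
Log2 fold change of old over young with its 95% interval (limma) for the 9 tested members above the dashed line and for 8 further family genes below it. Only Aldh3a1, Aldh1a1 and Aldh1a7 passed an adjusted p of 0.05, and the widest intervals belong to the low genes Aldh3b1 and Aldh1a3.

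Set side by side per length, Aldh1a1 was below Aldh2 in young HSCs and overlapped it in old ones. The FPKM of the 10 genes summed to 386 and 379 in the young replicates and to 472 and 570 in the old ones. Without Aldh1a1 the sums were 291 and 274 in young and 278 and 315 in old, and they overlapped. Of the difference between the age means of the sum, 138.6 FPKM, Aldh1a1 made up 89.7%. Its share of the family sum was 24.7% and 27.8% at 4 months and 41.2% and 44.7% at 24 months, and that of Aldh2 went from 60.7% and 55.6% to 47.2% and 43.3%. Since shares sum to a fixed total, the lower share of Aldh2 is not a measurement apart from the higher share of Aldh1a1.

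The order of the levels in young HSCs was Aldh2 (223 ± 16.6 FPKM), Aldh1a1 (100.5 ± 7.23), Aldh9a1 (38.6 ± 2.67), Aldh3a2 (13.5 ± 0.387), Aldh1b1 (3.30 ± 0.56), Aldh1a7 (2.54 ± 0.0345), Aldh3b1 (1.34 ± 0.974), Aldh3a1, Aldh1a3 (0.0664 ± 0.0271) and Aldh1a2 (0.0556 ± 0.0534; SD, n = 2). Neighbours in that order did not overlap between replicates, except Aldh1a3 and Aldh1a2. In old HSCs Aldh2 (235 ± 16.8) and Aldh1a1 (225 ± 42.7) overlapped. So did Aldh1b1 (3.31 ± 0.809) with Aldh3a1, and Aldh3b1 (0.895 ± 0.458) with Aldh1a7 (0.838 ± 0.238), as well as Aldh1a2 with Aldh1a3. Aldh3a1 thus stood eighth in young and sixth in old HSCs, and Aldh1a7 sixth and eighth.

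**Figure D4:**
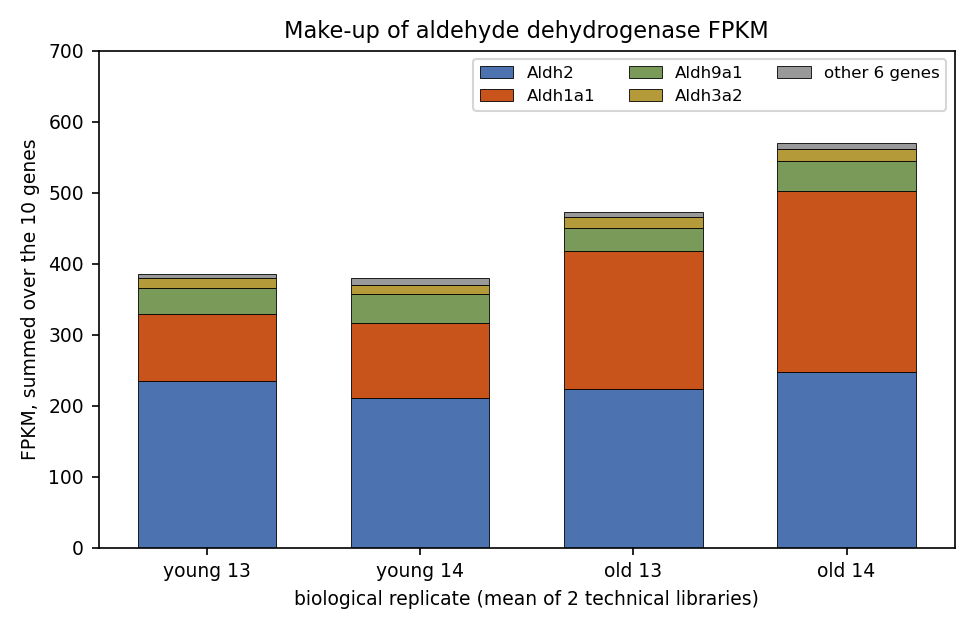
FPKM summed over the 10 aldehyde dehydrogenase genes in each biological replicate (mean of 2 technical libraries), split into the 4 most abundant genes and the other 6. The sum is 386 and 379 at 4 months against 472 and 570 at 24 months, and Aldh1a1 makes up 89.7% of the difference between the age means.

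The rest of the family showed no called change. Of 10 further Aldh genes 8 were tested, 6 with a log2 fold change above 0 and 2 below, and a median of 0.16; limma and limma-voom called 0, and 2 had an unadjusted p under 0.05. The smallest p belonged to Aldh5a1, the succinate semialdehyde dehydrogenase of GABA breakdown, which was 829 and 792.5 at 4 months against 1249 and 1386 at 24 months (adjusted p = 0.0722). Next was Aldh1l1, the cytosolic 10-formyltetrahydrofolate dehydrogenase, with 1661 and 1582 against 2018 and 2441 (adjusted p = 0.238). For both genes the old replicates lay above the young ones.

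A few retinoid handling genes rose and most did not pass. Of 23 retinoid handling genes 15 were tested, of which 3 rose and 0 fell in limma and limma-voom, 5 having an unadjusted p under 0.05. Their median was 0.17 on the log2 scale and 10 of 15 lay above 0, near the share of all genes tested. Rdh10, which makes retinaldehyde from retinol, was 716.5 and 754 at 4 months against 1521 and 1838.5 at 24 months, a fold of 2.27 (adjusted p = 0.0165). Cyp26b1, which breaks down retinoic acid, was 1856.5 and 2030.5 against 5161.5 and 7019, a fold of 3.1 (adjusted p = 0.00802), and Rarb, a retinoic acid receptor, rose 2.64-fold (adjusted p = 0.0103). In each of the 3 the ages did not overlap. The retinaldehyde reductase Dhrs3 was 619 ± 132 in young and 1176 ± 267 in old HSCs without passing (SD, n = 2, limma adjusted p = 0.108), and Cyp26a1, Cyp26c1, Lrat and Stra6 were too low to be tested.

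Other enzymes that make or reduce aldehydes did not pass. Of 5 tested genes of alcohol and formaldehyde dehydrogenation limma and limma-voom called 0, 1 had an unadjusted p under 0.05, and the median log2 fold change was 0.04. Their smallest p values belonged to Adhfe1, an iron-containing alcohol dehydrogenase, at 20.5 ± 4.24 and 41.2 ± 1.06 (adjusted p = 0.244), and to Cat, catalase, at 6172 ± 338 and 5284 ± 741 (SD, n = 2 per age, limma adjusted p = 0.621). Of 11 tested genes of aldehyde and carbonyl reduction both tools called 0, 2 had an unadjusted p under 0.05, and the median was 0.05. There Cbr3, a carbonyl reductase, was 191 ± 14.8 and 353 ± 53.7 (limma adjusted p = 0.105) and Akr1c12, an aldo-keto reductase, 185 ± 17 and 106.2 ± 15.2 (0.182, SD, n = 2).

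The regulators that textbooks place upstream of Aldh3a1 were also read out. Of 6 tested genes of the aryl hydrocarbon receptor pathway limma and limma-voom called 0, 1 had an unadjusted p under 0.05, and the median log2 fold change was 0.1. Ahr, the receptor, was 685 and 761.5 at 4 months against 917.5 and 1135 at 24 months (adjusted p = 0.253), Nqo1, a quinone reductase induced through it, had an adjusted p = 0.659, and Cyp1a2 was at 0 in every replicate. The Nrf2 pathway, the response to electrophiles, was read with 10 genes. Hmox1 fell from 913.8 ± 78.1 to 501 ± 9.19 (SD, n = 2, limma adjusted p = 0.0468), while the other 9 did not pass. Of these, Srxn1 was 1400 and 1264.5 at 4 months against 2154.5 and 2314 at 24 months (limma adjusted p = 0.0509). Among the 10 genes 8 lay above a log2 fold change of 0 and 2 below, with a median of 0.12. An unadjusted p under 0.05 was reached by 2 of them, and limma-voom also called 1.

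Promoters of 7 of the 10 members were matched, at 8 starts, and searched on both strands for 3 motifs. GCGTG, the core of aryl hydrocarbon receptor sites, was in those of 3 members (Aldh1a2, Aldh3a2 and Aldh9a1), and 32.4% of all 32851 promoters of the same length hold it. TGACNNNGC, the core of Nrf2 sites, was in those of Aldh1a2 and Aldh9a1 (12.4% of all), and AGGTCA, the core repeat unit of nuclear receptor sites, in that of Aldh3b1 (16.3%). None of the 3 motifs was in the windows of Aldh1a1 and Aldh1a7. Aldh1a3, Aldh2 and Aldh3a1 were not matched.

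The genes most like Aldh1a1 in pattern over the 4 replicates, by Euclidean distance of mean-centred log2 values, were Rab40b (0.06), Pam (0.07) and Lgr5 (0.08). Rab40b, a small GTPase, was 230.5 and 256.5 at 4 months against 478 and 592 at 24 months, and Pam, an enzyme that amidates peptides, was 3694.5 and 3984 against 7044 and 9391.5. Lgr5, a receptor for R-spondins, was 90 and 100.5 against 182 and 226 without passing (adjusted p = 0.0795). Those most like Aldh3a1 were Syt15 (0.17), Spint1 (0.2) and Ramp2 (0.2). Syt15, a synaptotagmin, was 22.5 and 25 at 4 months against 227.5 and 230.5 at 24 months. With 4 replicates many genes come close in pattern, and these were picked by likeness, so no test applies.

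The authors' deposited table marks 2 of the 10 genes as higher and 2 as lower at 24 months, where 11.8% of the 22284 genes with an FDR are marked (6.0% higher and 5.82% lower). Its log2 fold changes are 3.36 for Aldh3a1 (FDR 4.08e-44), 1.13 for Aldh1a1 (FDR 3.15e-19) and -1.62 for Aldh1a7 (FDR 2.69e-17), besides Aldh3b1 above. Which libraries entered that comparison as replicates is not stated.

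**Figure D5:**
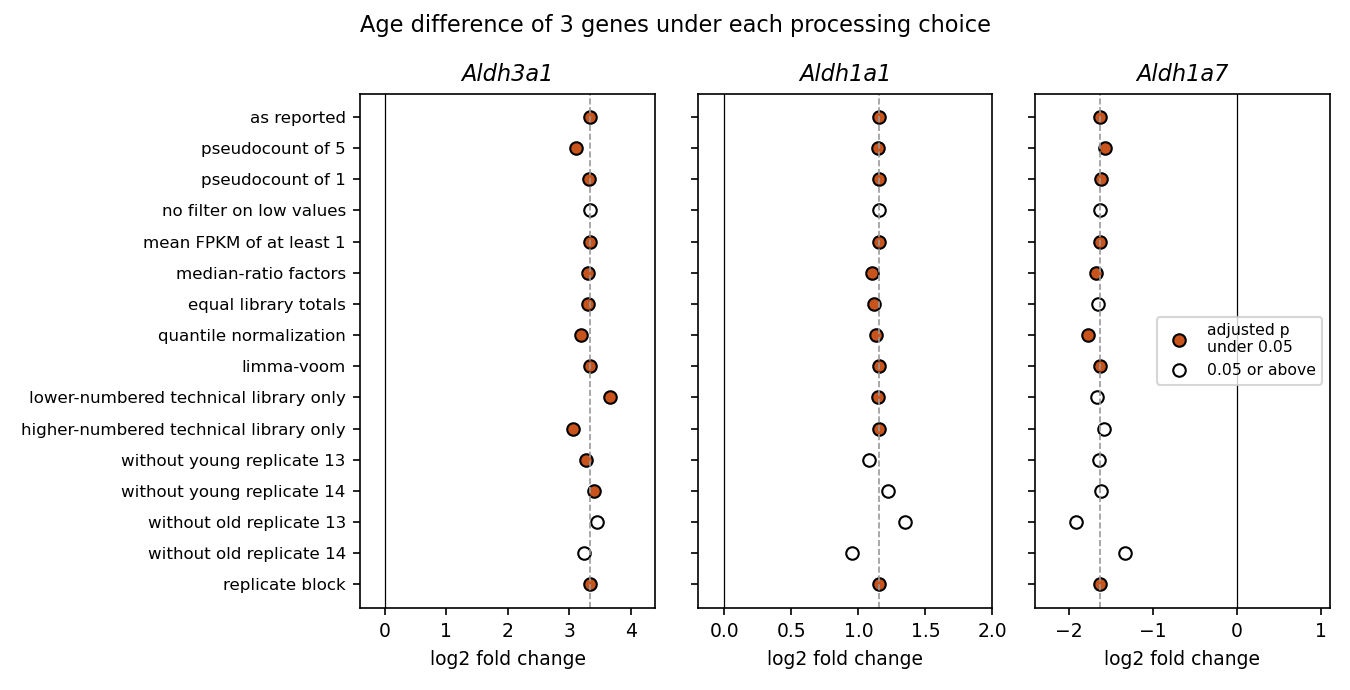
Log2 fold change of Aldh3a1, Aldh1a1 and Aldh1a7 as reported (top, dashed line) and under 15 other processing choices, filled where the adjusted p is under 0.05. The direction held in each, while Aldh1a1 and Aldh1a7 lost the call without any 1 replicate and Aldh3a1 when an old replicate was left out. All 3 lost it with no filter on low values, and Aldh1a7 also with equal library totals or with either technical library alone.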

How the data were processed

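RNA-seq of 8 libraries of sorted mouse HSCs was used, namely biological replicates 13 and 14 at 4 and at 24 months with 2 technical libraries apiece, grouped by the labels. The deposited values named like counts were read as a score, namely reads times a library factor, rounded. In the 4 libraries with a factor over 1, 0 gene values fell on the low whole numbers that the factor skips. The factor was fitted to the same values. In the other libraries no whole number was skipped, so this sign is absent there. The factors were estimated between 0.617 and 1.839. The deposited FPKM was that score times 1 constant per gene in all 20330 rows above 0 in every library (relative tolerance 1e-06), the rows where this was checked. The authors' log2 fold change and FDR (an adjusted p-value) come from the series table. Per the submitters' processing notes the genome build is mm9 and DESeq was among the tools; no source used here gives the aligner or counter.

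After averaging technical libraries, the 4 replicates entered limma 3.58.1 under R 4.3.3 as log2(value + 0.5), with 1 term for age, a trended prior, two-sided tests and Benjamini-Hochberg adjustment over 18318 genes. This understates the change of low genes. The fit was also run on simulated data, with the same log2 spread added to every gene and with independent replicates. These data differ from that in both respects, so the run does not measure the error rate of the calls here. Means are given with the SD over 2 replicates. Estimated reads are scaled values divided by the factor, and cover counting only. The members, the 6 pathway lists and the 11 marker lists were chosen with earlier results of these data known. All members were named, with each called gene of a list or the 2 smallest p, the leading gene of a marker list, the nearest 3 rows on each side of a called member and the 3 genes most like Aldh1a1 and Aldh3a1; further list genes named were chosen after their values were seen. Of the marker genes, 1 is not reported here. Sequences were aligned with Biopython 1.88. The 15 alternatives are in the closing section.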

Additional observations from a re-analysis of the deposited data

How the results depend on the processing

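Log2 fold changes of Aldh3a1, Aldh1a1 and Aldh1a7 kept their direction under all 15 alternatives, from 3.07 to 3.67, from 0.95 to 1.35 and from -1.92 to -1.33; limma called them in 12, 10 and 7 of these. Their adjusted p ranged up to 0.176, 0.229 and 0.257. Against 467 genes called (368 higher, 99 lower), no filter on low values gave 0 genes (0 and 0; 2943 at an unadjusted p under 0.05) and 0 and 0 members; a mean FPKM of at least 1 gave 302 (237 and 65); the lower-numbered technical libraries gave 293 (242 and 51) and 0 members lower; the higher-numbered ones gave 52 lower genes and 0 members lower; equal library totals gave 0 members lower. Leaving out 1 replicate gave 0 to 274 genes (0 to 206 higher, 0 to 68 lower), 0 to 1 members higher and 0 lower; without old replicate 13 or 14 limma called 0 genes, with 3669 and 1933 at an unadjusted p under 0.05. In such fits the lone replicate of an age is assumed to vary like the other age. Direction turned for members that were not called: Aldh1b1 to 0.088 with the lower-numbered libraries, and, without 1 replicate, Aldh1a3 over -0.80 to 0.41, Aldh1b1 over -0.26 to 0.25, Aldh3b1 over -1.27 to 0.36 and Aldh9a1 over -0.22 to 0.15. The cause was not tested. Young and old replicates share the numbers 13 and 14, which the labels do not say pair them; their deviations correlated with 0.544 across genes. With the replicate block 2766 genes were called (1698 higher, 1068 lower), and the same number of members, 2 higher and 1 lower. Median-ratio, equal-total and quantile scaling moved the median log2 fold change of all genes by -0.05, -0.03 and -0.05. Depth limits Aldh1a2 and Aldh1a3 most.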
